A study of Caenorhabditis elegans with 5 samples.

Results

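The sites described here are the places within introns of coding genes where LIN-42 peaks were called in Caenorhabditis elegans. They were taken as every peak, in any of the 3 deposited peak lists, that overlapped by at least 1 bp a region whose gene part was given as an intron of a coding gene in the authors' annotation of high confidence LIN-42::GFP regions. That annotation holds 412 regions, of which 99 were assigned to introns. At these regions 283 of the 4654 peaks in all lists were found: 99 of LIN-42::GFP replicate 1, 99 of LIN-42::GFP replicate 2 and 85 of endogenous LIN-42. Each region held exactly 1 peak of each LIN-42::GFP list and at most 1 endogenous peak, and the 99 regions, called intron sites from here on, lay in 97 genes. Since a region entered the annotation through the LIN-42::GFP lists, the presence of a LIN-42::GFP peak at a site is how it was chosen and not a result. The endogenous list did not enter that choice.

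All 5 samples came from strain HML214, which carries GFP-tagged lin-42, grown at 20 °C on OP50 bacteria and collected as late L4 larvae. The tagged protein was precipitated in 2 replicates from separate extracts by anti-GFP, and in 1 library by a rabbit antibody raised against a peptide of LIN-42A and LIN-42B, called endogenous LIN-42. The remaining 2 samples were input chromatin. The extracts were of whole animals, so a site cannot be assigned to a tissue, and because the endogenous antibody was used on the tagged strain the 3 lists are not independent of the tag. Precipitation from an untagged strain or with an unrelated antibody was not analysed here, so how many of the sites such a control would also show is not known.

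LIN-42 is the worm relative of the circadian protein PERIOD, and its level rises and falls with each molt. It has no known DNA-binding domain of its own, and PERIOD proteins act on chromatin through partner transcription factors. Introns are copied into the primary transcript and spliced out of the messenger RNA. In worms and other animals they can hold enhancers, start sites of shorter isoforms and genes for small RNAs, so a factor found there may lie beside an element of the host gene, of a shorter isoform or of another gene.

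The depth was low. Of 833169, 4334100 and 2268716 tags (aligned read positions) in LIN-42::GFP replicate 1, LIN-42::GFP replicate 2 and endogenous LIN-42, only 38236, 43991 and 122089 were left once repeated positions had been removed, so that 95%, 99% and 95% of the tags were redundant. Either LIN-42::GFP list held no peak of fewer than 4 tags, and the endogenous list none of fewer than 5. Where a site has no endogenous peak, LIN-42 was therefore not detectable with these tags, which does not show its absence. The list headers name Input2 and Input3 as controls of the LIN-42::GFP replicates and no control for endogenous LIN-42, whereas the samples are called Input 1 and Input 2. The methods describe calling of every list against input, which the header of the endogenous list contradicts, so whether its peaks exceed an input at the same place is not known.

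The median intron site held 11 tags in LIN-42::GFP replicate 1, with quartiles of 6.5 and 15 and a range of 4 to 47, beside a median of 6 over all peaks of that list. In LIN-42::GFP replicate 2 it was 10 tags, with a range of 4 to 58, beside 5 over the list, and in endogenous LIN-42 it was 11 tags, with a range of 5 to 63, beside 7. Being shared between lists is part of how the sites were chosen, so the excess over the whole list is a description and is not particular to introns. All other annotated regions had medians of 12, 12 and 20 tags in the 3 lists and promoter regions of coding genes had 14, 16 and 24, above the intron sites in each list. Without regions that had another peak of the same LIN-42::GFP list within 2000 bp, the LIN-42::GFP medians were equal. They were then 10, 10 and 11 tags at 82 intron sites and 10, 10 and 14 at 175 other regions. Tags at the minimum were found at 11, 9 and 2 of the sites in the 3 lists. Across sites, the log2 tags of the LIN-42::GFP replicates had a Pearson r of 0.72 and a Spearman rho of 0.68 over 99 sites, and those of replicate 1 and endogenous LIN-42 had values of 0.76 and 0.73 over 85 sites. Replicate 2 and endogenous LIN-42 had the lowest values, 0.61 and 0.57 over 85 sites. Over the other annotated regions the Spearman rho of these pairs was 0.69, 0.74 and 0.69 in the same order. The sites of a list share 1 library and its depth, and these correlations are descriptions. At 88 of the 99 sites the counts of the LIN-42::GFP replicates lay within a factor of 2 of each other, with more tags in replicate 2 at 48 sites, more in replicate 1 at 43 and equal counts at 8.

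**Figure D1:**
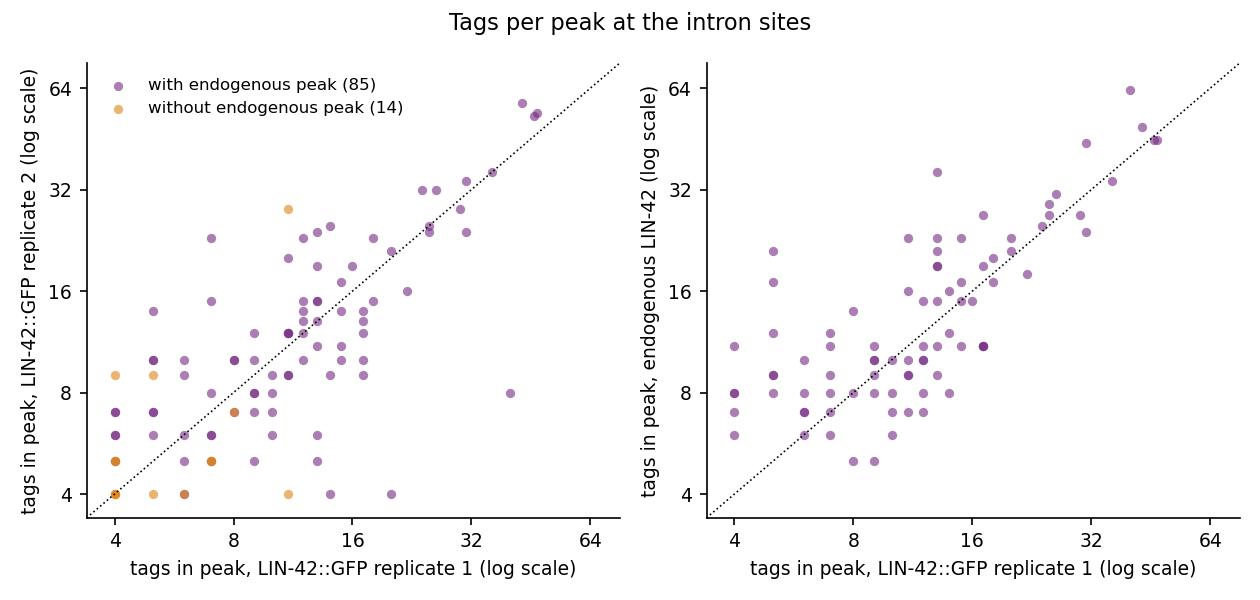
Tags per peak at each intron site, on log scales, for LIN-42::GFP replicate 2 (left) and endogenous LIN-42 (right) against LIN-42::GFP replicate 1. Each point is 1 site, the dotted line marks equal counts, and on the left the 14 sites with no endogenous peak lie mostly at 4 to 9 tags, while the 85 others reach 58.

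The sites with the most tags lay in largely the same genes in each list. 5 of the 99 sites held 30 or more tags in each list, with peaks between 122 and 318 bp wide. Their false discovery rates in LIN-42::GFP replicate 2 ran from 1.82% in ddl-2 to 7.69% in C04F12.7, the latter the highest among the intron sites. F59D12.2, on the X chromosome, held 47 tags in LIN-42::GFP replicate 1, 54 in LIN-42::GFP replicate 2 and 45 in endogenous LIN-42, in intron 2 of 3 and 1302 bp from the start site. In ttll-9, which encodes a tubulin tyrosine ligase-like enzyme of the family that modifies tubulin after translation, the counts were 46, 53 and 45, in intron 2 of 8. The site of C04F12.7 lay in intron 1 of 2, only 351 bp from the start site, and held 43, 58 and 49 tags. The site of W07E6.3, named sms-5 in the RefSeq table and a relative of sphingomyelin synthases, held 36, 36 and 34 tags in the last of 7 introns. The fifth was ddl-2, whose product forms a complex with heat shock factor HSF-1, with 31, 34 and 44 tags in the last of 2 introns. At these 5 genes no list stood apart from the other two by more than a factor of 1.5, although the endogenous list was about 3 times as deep after filtering. This closeness is no result, because the sites were picked for 30 or more tags in every list, which limits how far their counts could differ. A site of puf-4, among those with the most tags in LIN-42::GFP replicate 1 and endogenous LIN-42, held 40, 8 and 63 tags and was left out by that rule.

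At 4 of these sites, all but that of ddl-2, the peaks of all lists lay nearly on top of each other. In ce10 coordinates, the F59D12.2 peaks ran over X:15674280-15674438 in LIN-42::GFP replicate 1, X:15674265-15674441 in LIN-42::GFP replicate 2 and X:15674292-15674431 in endogenous LIN-42. Those of C04F12.7 ran over I:9696321-9696486, I:9696316-9696490 and I:9696332-9696478 in the same order, with summits 1 bp to either side of the replicate 1 summit. Those of W07E6.3 ran over II:498427-498574, II:498418-498578 and II:498437-498558, and those of ttll-9 over V:20910831-20911103, V:20910819-20911129 and V:20910839-20911093. In each case the endogenous peak sat inside the replicate 1 peak, which sat inside the replicate 2 peak. The fragment lengths estimated by the peak caller had the same order, at 84, 97 and 99 bp, and their part in the nesting was not tested.

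**Figure D2:**
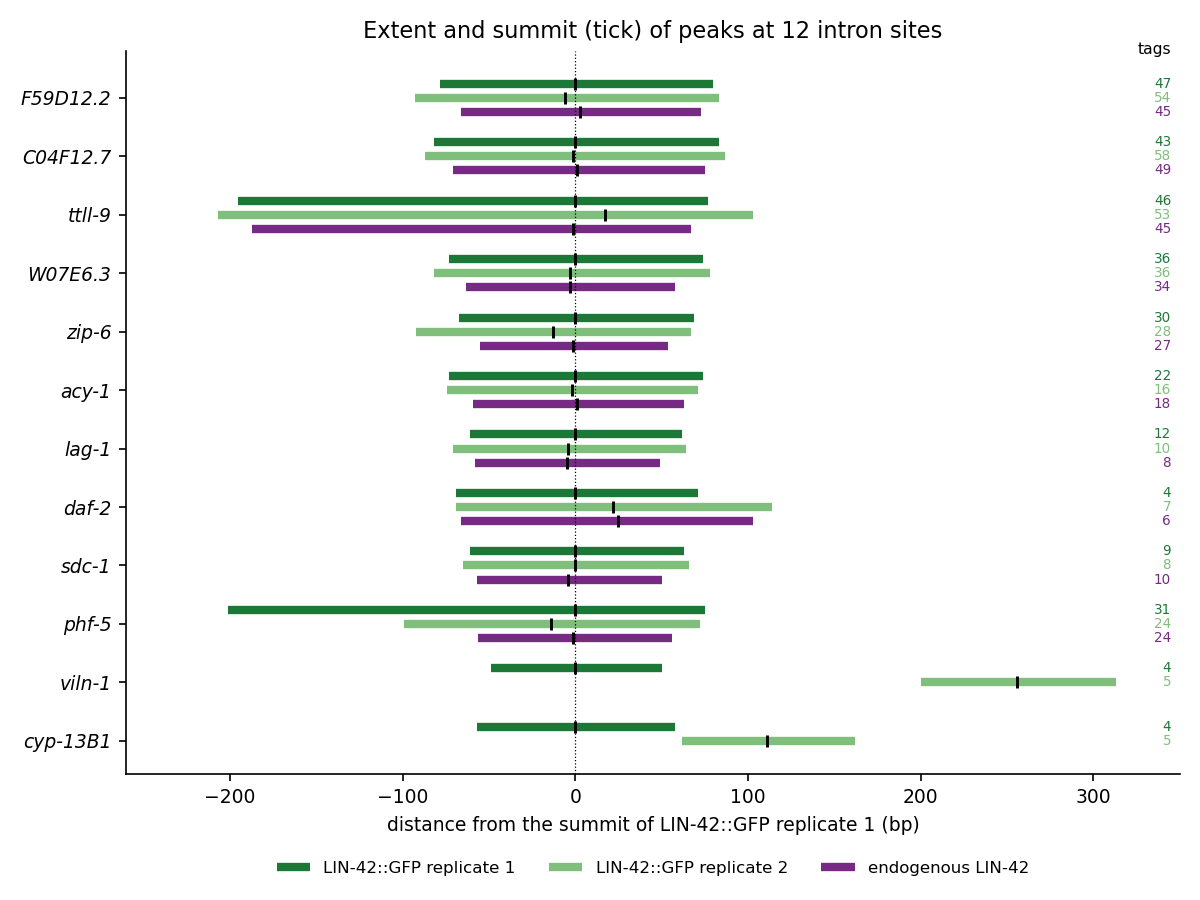
Extent (bars) and summit (black ticks) of the peaks at 12 intron sites, with distance in bp from the summit of LIN-42::GFP replicate 1 on the x axis and the tags of each peak at the right. At 10 sites all 3 bars overlap around the same point, whereas at viln-1 and cyp-13B1 the LIN-42::GFP bars do not meet and no endogenous peak was called.

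An endogenous peak was found at 85.9% of all intron sites and at 77.2% of all annotated regions, which is the background for the counts in groups of genes. Genes of transcription and chromatin carried 7 sites, all with an endogenous peak, which is near the share of all intron sites for so few. zip-6, a bZIP transcription factor, held 30 tags in LIN-42::GFP replicate 1, 28 in LIN-42::GFP replicate 2 and 27 in endogenous LIN-42, in intron 1 of 4. set-27, which encodes a SET domain protein of the family of histone methyltransferases, held 14, 25 and 12 tags at 662 bp from the start site. lag-1, the DNA-binding effector of Notch signaling, held 12, 10 and 8 tags in intron 10 of 11, and the summits of the other two lists lay 4 and 5 bp below that of replicate 1. The zip-6 site thus held more than 2 times the tags of the lag-1 site in every list. sdc-1, a zinc finger gene of sex determination and dosage compensation, carried the site nearest to a start site, at 125 bp, with 9, 8 and 10 tags and identical LIN-42::GFP summits. dmd-3, a DM domain factor that shapes the male tail tip, held 9, 7 and 9 tags in the last of 2 introns. ekl-4, a relative of the chromatin factor DMAP1, held 4, 6 and 8 tags, close to the smallest peaks the lists contain.

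Signaling and neuronal genes carried 12 sites, all with an endogenous peak, and the LIN-42::GFP summits lay within 10 bp of each other at 11 of them, beside 85.9% and 73.7% of all intron sites. The exception was daf-2, the insulin and IGF-1 receptor that governs dauer entry and lifespan, where they were 22 bp apart at 4 and 7 tags, with 6 tags in the endogenous peak. The daf-2 site, in intron 4 of 11 and 10592 bp from the start site, was among the weakest of the whole set. ins-29, an insulin-like peptide gene with a single intron, held 13, 19 and 21 tags at 214 bp from its start site. nlp-21, a gene of neuropeptide-like precursors and likewise with a single intron, held 12, 14 and 10 tags. acy-1, which encodes an adenylyl cyclase, held 22, 16 and 18 tags in intron 1 of 12, with summits within 2 bp of each other for the LIN-42::GFP lists. The site in tir-1, the SARM1 relative of innate immunity and neuronal development, was the farthest from a start site of all 99, at 23954 bp, and still held 12, 12 and 11 tags with identical LIN-42::GFP summits.

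Among the other genes of that group, lin-23, an F-box protein of a ubiquitin ligase that limits cell divisions, held 16, 19 and 15 tags at 219 bp from its start site. The Src-type kinase gene src-1 held 11, 12 and 16 tags at 9783 bp. In csn-4, a subunit of the COP9 signalosome, the counts were 15, 11 and 11, and in mtm-9, of the myotubularin family, they were 17, 10 and 19. The putative chemoreceptor genes sri-10 and srsx-38 held 10, 6 and 8 tags and 13, 15 and 19 tags. npr-30, a neuropeptide receptor family gene, was the case in which the endogenous count stood apart, with 21 tags beside 5 and 6 in LIN-42::GFP replicates 1 and 2.

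Genes of RNA processing and translation carried 8 sites in 7 genes, and all 8 held an endogenous peak, beside 85.9% of all intron sites. phf-5, a component of the SF3b splicing complex, held 31, 24 and 24 tags in the last of 2 introns. teg-1, which binds splicing factors and limits germline proliferation, held 11, 12 and 23 tags. The U4/U6-U5 particle protein prp-6 held 7, 8 and 11 tags at 15997 bp from its start site, and all summits there coincided. smu-1, a splicing factor, held 7, 15 and 9 tags, and npp-20, a nuclear pore component, held 11, 9 and 9. mrpl-38, of the mitochondrial ribosome, held 17, 14 and 11 tags with identical LIN-42::GFP summits.

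puf-4, of the family of Pumilio RNA-binding proteins and a pseudogene in the RefSeq table, had 2 sites in its intron 2 of 4, separated by 78 bp. The first held 20 tags in LIN-42::GFP replicate 1, 4 in LIN-42::GFP replicate 2 and 23 in endogenous LIN-42, and the second held 40, 8 and 63. Both were 5 times higher in replicate 1 than in replicate 2, the largest such ratio among the 99 sites. The second was also the widest in replicate 1 and in the endogenous list, at 685 and 1434 bp, and its endogenous summit lay 246 bp from that of replicate 1, the largest such distance. Fold enrichment over the caller's background was low for these tags. At the 2 sites it was 42.98 and 35.22 in replicate 1, beside a median of 218.38 over intron sites. In replicate 2 it was 55.67 and 25.41, beside 77.16, and in the endogenous list 7.31 and 8.35, beside 59.52.

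The list of DNA repair and telomere genes carried 5 sites, of which 3 held an endogenous peak, beside 85.9% of all intron sites. C47D12.8 and Y116A8C.13, named xpf-1 and rad-54.B in the RefSeq table, are outside this list because it goes by the annotation's names. They held 12, 23 and 15 tags and 20, 21 and 21 tags, with an endogenous peak at each. msh-6, of mismatch repair, held 13, 24 and 23 tags. cku-70, the Ku70 end-joining protein, held 5, 10 and 9 tags, and mrt-2, of the checkpoint clamp required for telomere maintenance, held 7, 6 and 8. The flap endonuclease gene crn-1 and the helicase gene pif-1 each held 4 tags in both LIN-42::GFP lists, the smallest count possible, and no endogenous peak was called at either.

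Genes of the cytoskeleton, adhesion and muscle carried 11 sites, with an endogenous peak at 9. Apart from ttll-9, the cadherin genes cdh-12 and cdh-10 held the highest counts in LIN-42::GFP replicate 2, with 15, 17 and 17 tags and 12, 15 and 10 tags. frm-1, a FERM domain protein of the cell cortex, held 9, 8 and 11 tags in the last of 11 introns, 23642 bp from its start site. The dynein heavy chain gene dhc-4 held 6, 5 and 6 tags in intron 16 of 26, the highest intron number among the sites, and dlc-4, a dynein light chain gene, held 8, 10 and 5. The integrin-linked kinase gene pat-4, needed for muscle attachment, held 4, 5 and 7 tags, and inft-1, an inverted formin, held 5, 7 and 12. zyg-9, a microtubule-growth factor of the embryonic spindle, held 13, 5 and 9 tags and its LIN-42::GFP summits were 56 bp apart. The villin gene viln-1 (4 and 5 tags) and the adhesion molecule gene igcm-4 (7 and 5 tags) had no endogenous peak.

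Genes of membranes, transport and metabolism carried 14 sites, of which 11 held an endogenous peak. apg-1, the gamma subunit of the clathrin adaptor AP-1, held 24, 32 and 25 tags in the last of 8 introns, 11216 bp from the start site. tat-1, a flippase that keeps phosphatidylserine on the inner leaflet, held 18, 23 and 17 tags, and the ABC transporter gene mrp-7 held 18, 15 and 20. The acyl-CoA synthetase gene acs-16 held 17, 13 and 11 tags, the CTP synthase gene ctps-1 held 8, 7 and 14, and the fatty acid amide hydrolase gene faah-4 held 9, 12 and 8. Lower counts were found in rab-35, a recycling GTPase (6, 9 and 10 tags), hex-4, a hexosaminidase (4, 6 and 8 tags), lpd-3 (9, 5 and 5 tags) and oac-45 (6, 10 and 7 tags). The sorting nexin gene snx-6 was uneven, with 14, 4 and 8 tags, although its LIN-42::GFP summits coincided. The cytochrome P450 gene cyp-13B1 (4 and 5 tags), the organic anion transporter gene oat-1 (5 and 9 tags) and rbg-2 (4 and 4 tags) had no endogenous peak. The remaining 42 sites lay in genes outside these 6 lists, and 35 of them held an endogenous peak. Genes that the RefSeq table names otherwise than the annotation, such as W07E6.3 (sms-5), are among them, so the lists are not complete. The lists are small and were chosen with results of these data known, so the counts are descriptions and differences between lists were not tested.

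The sites were spread along their genes rather than gathered at the first intron. The annotation does not state whether introns are numbered from the start site, as was assumed here. Intron 1 held 20 of 99 sites, 20.2% with a 95% Wilson interval of 13.5% to 29.2%, and the last of 2 or more introns held 26, or 26.3% with an interval of 18.6% to 35.7%. The other 53 lay between. If each site had an even share among the annotated introns of its gene, intron 1 would hold 20.7 sites. The last of 2 or more introns would hold fewer than that, because the 2 sites in single-intron genes drop out, beside the 26 found. That difference was not tested. Such an even share takes no account of intron length, which was not analysed here. The median site lay in intron 4 of a gene with 6, and the introns counted per gene ran from 1 to 35, the latter in W05F2.4, whose site in intron 6 held 4, 7 and 11 tags. The endogenous list covered 15 of the 20 sites in intron 1, 70 of the 79 in later introns and 25 of the 26 in last introns, beside 85.9% of all intron sites. The share in intron 1 had a 95% Wilson interval of 53.1% to 88.8%, which includes that of all intron sites.

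The distance to the annotated start site had a median of 3038 bp and ran from 125 bp in sdc-1 to 23954 bp in tir-1. Only 6 sites lay within 500 bp, namely those of sdc-1, ins-29, lin-23, C04F12.7, C16C8.2 and crn-1, and all 6 carried intron number 1. A further 6 lay between 500 and 1000 bp, 16 between 1000 and 2000 bp, 37 between 2000 and 5000 bp, 20 between 5000 and 10000 bp and 14 farther away. The median was 1744.5 bp for sites in intron 1 and 3920 bp for sites in later introns, and intron number and distance had a Spearman rho of 0.67 over the 99 sites. Distance bore little relation to tags, with a Spearman rho of -0.14 in LIN-42::GFP replicate 1 and -0.16 in replicate 2. Besides tir-1 and frm-1, the far end held Y50D7A.1, with 17, 12 and 27 tags at 20349 bp in the last of 9 introns, and Y37E3.17, with 7, 5 and 12 tags at 15824 bp. An endogenous peak was found at 5, 6, 11, 35, 16 and 12 sites of the 6 distance classes in the order above. The shares were 83.3%, 100%, 68.8%, 94.6%, 80.0% and 85.7%, beside 85.9% of all intron sites, and differences between classes were not tested.

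**Figure D3:**
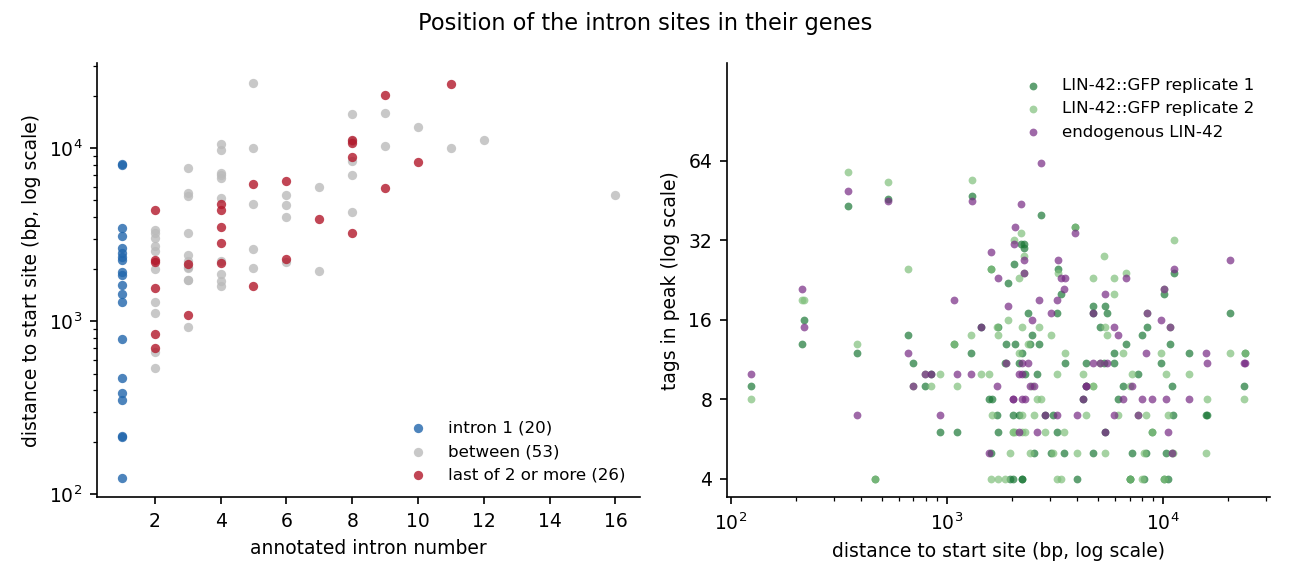
Left, distance to the annotated start site (bp, log scale) against the annotated intron number for the 99 sites, coloured by whether the site lay in intron 1 (20), the last of 2 or more introns (26) or between (53). Right, tags per peak (log scale) against the same distance in the 3 lists, where sites with over 10 tags are found both near 500 bp and past 10000 bp.

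Of the chromosomes, I held 26 sites, III held 24, IV held 18, II and V held 11 each and X held 9. An endogenous peak was found at all 24 sites of chromosome III, all 11 of chromosome V and 5 of the 9 on the X chromosome, beside 85.9% of all intron sites. The X share of 55.6% had a 95% Wilson interval of 26.7% to 81.1%, and differences between chromosomes were not tested. The X sites included F59D12.2, with the most tags of the 99 in LIN-42::GFP replicate 1, and the low counts of igcm-4 and cyp-13B1. A pair of sites in Y81B9A.2, in its intron 3 of 4, also lay there. The site at 2071 bp from the start held 13, 6 and 36 tags under an endogenous peak of 1137 bp, and the site at 5310 bp held 11 and 28 tags with no endogenous peak. That endogenous peak had a fold enrichment of 6.21, the lowest among the intron sites, beside a median of 59.52. LIN-42::GFP summits were 202 and 437 bp apart at these sites, and 437 bp was the largest distance among the 99.

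Peaks at the intron sites were narrow. The median width was 129 bp in LIN-42::GFP replicate 1, 139 bp in LIN-42::GFP replicate 2 and 115 bp in endogenous LIN-42. The fragment lengths that the peak caller had estimated were 97, 99 and 84 bp, so the median peak exceeded them by 32, 40 and 31 bp. Widths of at most 150 bp were found at 74, 62 and 69 of the sites, or 74.7%, 62.6% and 81.2%, beside 51.9%, 74.0% and 39.0% of all peaks in these lists. In LIN-42::GFP replicate 2 the intron sites were thus not narrower than their list. Promoter regions of coding genes in the same annotation (135 regions) had median widths of 190, 187 and 234 bp, and regions downstream of coding genes (107 regions) had 227, 269 and 263 bp. All regions outside introns had 202, 215 and 216 bp. The gap was far smaller where regions with another peak of the same LIN-42::GFP list within 2000 bp were left out, with medians of 128, 139.5 and 115 bp at 82 intron sites and 140, 149 and 125.5 bp at 175 other regions. Another peak of the same LIN-42::GFP list lay within 2000 bp at 17.2% of intron sites, beside 45.2% of promoter and 45.8% of downstream regions.

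Summits, the positions of highest tag pile-up, lay close together between libraries at most sites. In narrow peaks the summit often lay at the middle of the peak. In mrpl-38, for example, that of LIN-42::GFP replicate 1 lay at 1024427 in a peak over I:1024356-1024499. Closeness of such summits largely restates that of the peak edges and is not separate evidence of a shared point. Summits of the LIN-42::GFP replicates were a median of 5 bp apart and lay within 10 bp at 73 of 99 sites, or 73.7%, beside 48.1% of all annotated regions, 42.2% of promoter regions and 41.1% of downstream regions. With every region left out that had a neighbouring peak within 2000 bp, the share was 73.2% of 82 intron sites and 57.7% of 175 other regions. They coincided at 16 sites, among them those of C35B1.2, F43C11.9, F58F12.3, F59A2.6 and R148.2. The replicate 2 summit had the lower coordinate at 57 sites and the higher at 26. 8 sites had summits over 50 bp apart: the pair in Y81B9A.2, viln-1, B0019.2, cyp-13B1, crn-1, F59D12.1 and zyg-9. At viln-1, B0019.2 and cyp-13B1 the LIN-42::GFP peaks did not overlap at all, and none of these had an endogenous peak. LIN-42::GFP peaks overlapped at the other 96 sites, beside 96.4% of all annotated regions.

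The summits of endogenous LIN-42 lay a median of 3 bp from those of LIN-42::GFP replicate 1, within 10 bp at 70 of 85 sites, or 82.4%, beside 61.9% of all annotated regions with an endogenous peak. They were split evenly about the replicate 1 summit, with 38 lower, 38 higher and 9 at the same base. Only 3 were over 50 bp away, the pair in puf-4 and the Y81B9A.2 site at 2071 bp. All 3 summits fell within 10 bp of each other at 55 sites. The endogenous peak lay wholly inside the replicate 1 peak at 61 sites, and the median difference was 11 bp at either edge. The estimated fragment lengths of these 2 lists were 84 and 97 bp. At the 50 narrowest regions, of up to 150 bp, the LIN-42::GFP summits never differed by more than 14 bp, and 45 of them held an endogenous peak. A region spans both of its LIN-42::GFP peaks, so a narrow region leaves little room for their summits to differ. The part that width plays in the summit agreement of introns beside other regions was not tested. Among the 49 wider regions 25 had LIN-42::GFP summits within 10 bp and 40 held an endogenous peak.

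**Figure D4:**
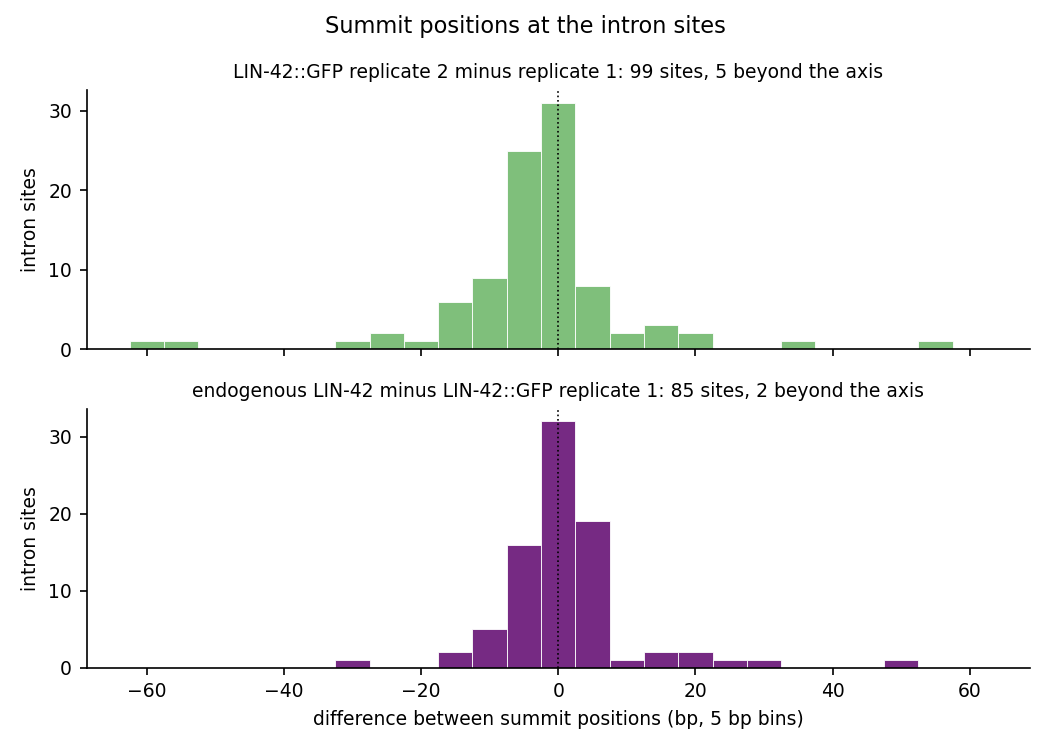
Number of intron sites by the difference between summit positions (bp, 5 bp bins), for LIN-42::GFP replicate 2 minus replicate 1 (top, 99 sites, 5 beyond the axis) and endogenous LIN-42 minus LIN-42::GFP replicate 1 (bottom, 85 sites, 2 beyond the axis). The lower panel is centred on 0, with 38 sites to either side, while the upper panel has 57 sites below 0 and 26 above.

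An endogenous LIN-42 peak overlapped 85 of the 99 intron sites, a share of 85.9% with a 95% Wilson interval of 77.7% to 91.4%, beside 77.2% of all annotated regions. The share was 86.7% (79.9% to 91.4%) of promoter regions, 67.3% (57.9% to 75.4%) of downstream regions and 74.4% (69.3% to 79.0%) of all regions outside introns. The intervals treat regions as independent and cover counting error only. The intervals of introns and promoters covered nearly the same range, and that of downstream regions lay below both. Within introns the share moved with the tags. Where the lower of the LIN-42::GFP counts was 4 or 5, an endogenous peak was found at 18 of 30 intron sites (60.0%) and 41 of 75 other regions (54.7%). At 6 to 9 tags it was found at 26 of 27 (96.3%) and 58 of 81 (71.6%), and at 10 or more at 41 of 42 (97.6%) and 134 of 157 (85.4%). The part that tags or neighbouring peaks play in the difference between classes was not tested. With neighbouring peaks left out, the intron share was 84.1% and that of other regions 81.1%.

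The 14 sites with no endogenous peak were those of B0019.2, crn-1, K12C11.1, pif-1, rbg-2, viln-1, F58F12.3, C54E4.2, oat-1, Y94H6A.5, cyp-13B1, F59D12.1, igcm-4 and the Y81B9A.2 site at 5310 bp. Their median was 5 tags in either LIN-42::GFP list, beside 12 and 10 at the sites that held one. Among the exceptions to low counts, the Y81B9A.2 site at 5310 bp held 11 and 28 tags in the LIN-42::GFP lists. K12C11.1 held 11 tags in replicate 1 but 4 in replicate 2, and F59D12.1 held 8 and 7, only 5842 bp from the F59D12.2 site. The LIN-42::GFP summits were over 50 bp apart at 6 of the 14. Peak scores, 10 times the negative log10 of the caller's p-value, were low in both LIN-42::GFP lists at rbg-2, with 71.19 and 67.75, against 1254.74 and 750.08 at F59D12.2. A score of 50 is the cutoff of the lists.

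**Figure D5:**
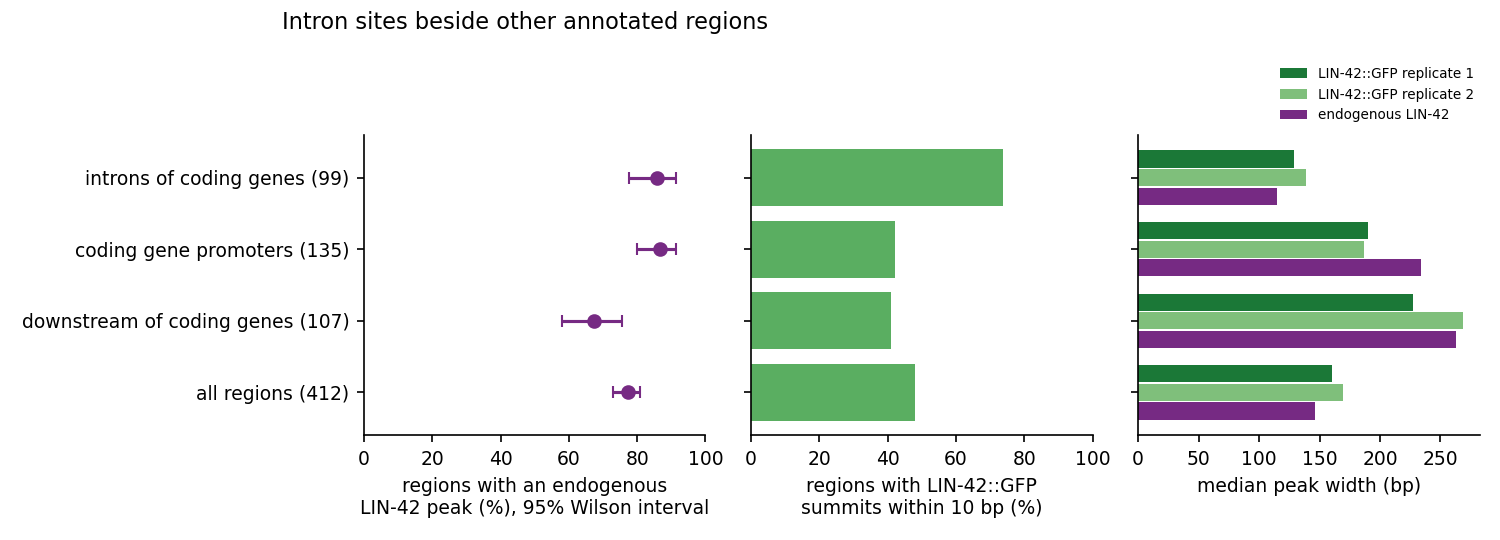
Intron sites beside promoter, downstream and all annotated regions (number of regions in brackets): the share with an endogenous LIN-42 peak with 95% Wilson intervals (left), the share with LIN-42::GFP summits within 10 bp (middle) and the median peak width in bp in the 3 lists (right). The endogenous share of introns (85.9%) is next to that of promoters (86.7%), whereas summit agreement is 73.7% against 42.2%. Regions with neighbouring peaks are included, and without them the median widths of introns and other regions are 128 and 140 bp in LIN-42::GFP replicate 1.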

How the data were processed

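Late L4 animals were profiled by ChIP-seq. Per the file headers, the authors called peaks with MACS 1.4.2 (p-value cutoff 1e-05, 76 bp tags) on each library alone; Bowtie2 and ce10 are given by the submitters' processing notes, and uniquely aligned reads were used. The tag count per peak was deposited unnormalized, after the authors kept 1 tag per position. The score deposited for each peak is 10 times the negative log10 p-value. The fold enrichment in the authors' lists is a ratio to the background MACS estimated and was not compared between lists. The false discovery rate, in percent, was deposited for the LIN-42::GFP lists only. No normalization makes tags comparable between lists.

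Coordinates were read as 1-based and closed. Gene, intron number and count, and start-site distance are from the authors' annotation of shared regions. No test was run over regions, which are not replicates. Members, gene lists and alternatives were chosen with earlier results of these data known. Named genes are those of 6 role lists, the 5 sites with most tags per list, the 5 nearest to and farthest from the start site, the 5 largest and smallest summit distances, the 5 nearest the p-value cutoff, sites with no endogenous peak and genes with 2 sites. The smallest summit distance, 0 bp, was tied at 16 sites, so the 5 taken there are not a ranking. Names were looked up in RefSeq's WBcel235 table (93 of 97 genes matched, 13 under another name). Overlap code was tested on simulated data. Shares have 95% Wilson intervals. The code ran under Python 3.11.15 with pandas 2.3.3, NumPy 2.4.6, Matplotlib 3.10.9 and SciPy 1.17.1.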

Additional observations from a re-analysis of the deposited data

How the results depend on the processing

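Over 43 alternative settings of 11 values, 42 left the value within the limits set for it, but several of them could not have moved it. Each site held 1 peak of each LIN-42::GFP list and at most 1 endogenous peak. Summing tags, taking all peaks of a region, pairing the closest summits or counting by replicate 1 peaks therefore changed nothing. The exception to the limits was the number of intron sites with overlapping LIN-42::GFP peaks. It was 96 and became 59 with a false discovery rate of at most 1% in both lists. That limit was exceeded in LIN-42::GFP replicate 2 at 37 sites, and these held more tags, with medians of 15 and 19 in the LIN-42::GFP lists against 8 and 7 at the other 62, so the limit removed the stronger sites. The count was 87 under a reciprocal overlap of 50% and 79 at a p-value of 1e-10. The endogenous share ran from 83.8% to 88.5%. Comparing the endogenous peaks with only LIN-42::GFP replicate 1 or only replicate 2 left it at 85.9%, with median summit distances of 3 and 5 bp. The sites were still those chosen through both LIN-42::GFP lists, so these settings cannot show how far the share depends on either replicate. Among all peaks of the lists, 42.4% of those of replicate 1 and 15.8% of those of replicate 2 overlapped an endogenous peak. Leaving out the genes with 2 sites, and keeping only overlapping LIN-42::GFP peaks, were chosen after seeing the data. No paired analysis was possible because the results come from no test. With 1 library per list and at most 58 tags per LIN-42::GFP peak, a missing peak cannot be read as absence of LIN-42.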

Other observations

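3 of the genes with an intron site had a further annotated region of another class. Y95B8A.2 held 15, 10 and 15 tags in its intron, and a promoter region assigned to the same gene held 112, 88 and 250. For mrpl-38, an exon region held 14, 4 and 5 tags beside 17, 14 and 11 in the intron, and for acs-16 a downstream region held 5, 4 and 5 beside 17, 13 and 11. The sites of rab-35 and teg-1, in neighbouring genes of chromosome III, were 2931 bp apart. In the RefSeq table F43C11.9 is listed as enri-1, F59A2.6 as golg-4 and R148.2 as lmtr-5.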
